A study of Rattus norvegicus with 32 samples.

Results

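The circadian clock genes were read here as 10 genes: Arntl, Clock, Npas2, Per1, Per2, Per3, Cry1, Nr1d1, Nr1d2 and Dbp. A probe was taken as a member when it was not a control and when either annotation version in the scanner files named it after one of these genes. The array named 21184 gene symbols found in RefSeq, and the 10 genes had 16 of its 45598 different probes. For 14 of the 16 the signal passed the filter on dim probes in both sexes, and 26492 probes of the whole array were kept in at least 1 sex. All 10 genes had a probe that was well above background on all 32 arrays. The probes left out were 2 of the 3 Per3 probes, which were well above background on 0 arrays.

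The arrays measured RNA from the left ventricle of male and female Wistar rats, a laboratory strain, 20 h after surgery. In each sex, 5 rats had sham surgery, 5 had CLP (cecal ligation and puncture, a surgical model of abdominal sepsis) and 6 had CLP followed by an infusion of landiolol, which blocks β1-adrenergic receptors and is cleared quickly. The rats were young adults, the CLP group without landiolol received saline, and buprenorphine was given to control pain. Before freezing, the hearts were imaged in the living animal and perfused ex vivo, so the tissue had been outside the body before RNA was taken. Each array held the RNA of 1 rat. The hour of the day at surgery or collection is not given in the sources used here, so its part in the levels of clock genes was not tested.

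In the mammalian clock, ARNTL (also called BMAL1) pairs with CLOCK or NPAS2 and switches on the Per and Cry genes, whose proteins return to block that pair. The nuclear receptors NR1D1 and NR1D2 (REV-ERBα and REV-ERBβ) repress Arntl, and DBP carries the rhythm to output genes through D-box elements. Heart muscle cells have such a clock of their own, which is known to set daily rhythms in metabolism and in ion channels.

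Upstream sequences were taken from RefSeq (build GRCr8) for 9 of the 10 genes, with 11 windows of 250 bases before a start site. Cry1 was not matched. Of the motifs searched on both strands, the E-box CACGTG was in 5.59% of the 33469 windows of all genes, the E′-box CACGTT in 4.07%, the D-box (TTATGTAA or TTACGTAA) in 0.932%, the CRE (TGACGTCA) in 1.59% and the ROR/REV-ERB response element in 0.317%. The 3 windows below are shown because they hold the binding letters of the loop just described, and capitals mark the motif. A match is a description of letters and not a bound site.

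Arntl, chr1:176766078-176766327, plus strand, with a ROR/REV-ERB response element at bases 20 to 10 before the start:
Arntl: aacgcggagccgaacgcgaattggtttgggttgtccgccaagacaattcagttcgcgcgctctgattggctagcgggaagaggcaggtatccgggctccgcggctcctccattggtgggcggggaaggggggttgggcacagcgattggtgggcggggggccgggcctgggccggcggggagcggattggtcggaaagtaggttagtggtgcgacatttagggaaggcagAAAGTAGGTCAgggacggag
Per2, chr9:99496994-99497243, minus strand, with a D-box at bases 192 to 185 and an E′-box at bases 62 to 57 before the start:
Per2: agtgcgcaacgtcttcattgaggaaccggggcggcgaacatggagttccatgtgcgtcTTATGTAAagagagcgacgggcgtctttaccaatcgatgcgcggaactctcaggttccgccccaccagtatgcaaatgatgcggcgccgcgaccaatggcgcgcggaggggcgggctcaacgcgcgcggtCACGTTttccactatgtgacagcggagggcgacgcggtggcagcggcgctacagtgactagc
Nr1d1, the second of 2 windows, chr10:84229455-84229704, minus strand, with an E-box at bases 191 to 186 before the start:
Nr1d1: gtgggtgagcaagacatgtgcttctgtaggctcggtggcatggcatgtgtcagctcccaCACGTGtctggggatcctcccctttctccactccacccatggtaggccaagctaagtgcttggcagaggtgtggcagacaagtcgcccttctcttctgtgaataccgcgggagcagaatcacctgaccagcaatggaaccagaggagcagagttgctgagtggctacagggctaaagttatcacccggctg

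The other Nr1d1 window held an E′-box on the opposite strand, at bases 174 to 169. An E-box reads the same on both strands and was counted once. In the windows of Clock, Npas2, Per1, Per3, Nr1d2 and Dbp these letters were not found, and a CRE was found in 0 member windows. Probe positions below are those of build rn4, which the file headers name, and were not compared with GRCr8.

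The 32 arrays lay on 4 slides, and each group was spread over both slides of its sex. Male and female arrays were on different slides, so sex and slide cannot be told apart and levels were not compared between the sexes. In females, all sham arrays lay in row 1 of a slide and all CLP plus landiolol arrays in row 2, so that this comparison cannot be told apart from the row. Between 34920 and 43155 spots were well above background per array and 0 were saturated. Of the cell type markers, all 6 cardiomyocyte genes (such as Myh6 and Tnnt2) were above background on every array. The summed intensity of 7 macrophage and monocyte markers was 11800 to 16400 in the male sham group, 31400 to 46300 in male CLP hearts and 23500 to 45500 with added landiolol. For female hearts these ranges were 15500 to 22800, 32300 to 51100 and 30800 to 51500. The 6 neutrophil markers summed to 43 to 66, 140 to 802 and 320 to 871 in the male groups, in the same order. In the female groups they summed to 41 to 79, 179 to 456 and 181 to 1150. Mmp8 was well above background on 0 arrays. Of the 6 markers, 2 passed the filter on dim probes. In each sham group 4 were above background on 0 arrays, so the sham sums lay near the floor. Of 5 fibroblast markers, 3 fell in male CLP vs sham by limma (median difference of the list -1.34). In females 0 passed, and 4 had an unadjusted p under 0.05 (median -0.95). In each sex 4 of the 5 were lower and 1 was higher, and in males all 5 had an unadjusted limma p under 0.05. Their sums overlapped, at 60200 to 84300 in sham and 42700 to 82100 in CLP for males and at 42900 to 64700 and 39400 to 78300 for females. Lymphocyte markers summed to 795 to 1180 in male sham and 557 to 728 in male CLP hearts, without overlap, and to 620 to 1170 and 486 to 796 in females. Of the 7 lymphocyte markers summed, 3 passed the filter on dim probes and were tested. Limma called 0 of these 3, with an unadjusted p under 0.05 for 2 in males and 1 in females. The macrophage and neutrophil sums were higher in CLP than in sham hearts of both sexes, though not every marker in these lists rose. For fibroblasts the median difference and the sum went opposite ways. Their median sum was 69500 in sham and 73000 in CLP for males, and 47200 and 64700 for females. The lymphocyte sums were lower in male CLP hearts and overlapped with sham in females. The cardiomyocyte list had a median CLP vs sham difference of -0.04 in males and 0.02 in females. Its summed intensity was 1880000 to 2060000 in sham and 1720000 to 1900000 in CLP for males. For females it was 1990000 to 2220000 and 1930000 to 2020000. The 5 endothelial markers summed to 45700 to 63000 in male sham and 49100 to 68300 in male CLP hearts. In females they summed to 34900 to 56500 and 36200 to 70700. The part of these cell markers in the differences below was not tested. In tissue of mixed cells, fewer cells of a type and less RNA per cell cannot be told apart.

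Levels are log2 intensities after quantile normalisation within each sex, a difference is that of group means on this log2 scale, and a gene is represented by its brightest probe unless stated. Groups were tested with limma over all kept probes, and comparisons with sham were held to 1% FDR (the false discovery rate). Landiolol-treated against untreated CLP hearts were held to an FDR of 5%. None of the 10 clock genes passed in any of the 6 comparisons. In males, the share of all probes that passed was 7.81% in CLP vs sham, 1.56% in CLP plus landiolol vs CLP and 4.15% in CLP plus landiolol vs sham. In females it was 3.63%, 0.0945% and 5.25%. SAM, the methods' test, called 0 clock genes in 5 comparisons, beside 9.04%, 3.13% and 6.84% of all probes in males and 6.23% and 0.173% in females for CLP vs sham and CLP plus landiolol vs CLP. For female CLP plus landiolol vs sham it called 1 of the 10, Per2, beside 12% of all probes. Per2 was also called there by limma with array weights, beside 9.19% of probes, and with an FDR of 5%, beside 12.8%, so that 1 of 10 was near the share of all probes.

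An unadjusted limma p under 0.05 was reached for CLP vs sham by 4 clock genes in males (Per2, Per3, Nr1d2 and Dbp), beside 28.8% of all probes, and by 2 in females (Per2 and Dbp), beside 23.1%. For CLP plus landiolol vs CLP the counts were 0 in males and 0 in females, beside 14.8% and 9.34% of probes. For CLP plus landiolol vs sham, 2 clock genes reached it in each sex (Per2 and Per3), beside 24.2% and 26.7%. Over the 10 genes the median size of the difference, without its sign, was 0.31, 0.27 and 0.22 in males and 0.24, 0.18 and 0.31 in females for CLP vs sham, CLP plus landiolol vs CLP and CLP plus landiolol vs sham. Over all probes it was 0.24, 0.20 and 0.23 in males and 0.25, 0.17 and 0.27 in females. The median of the signed differences of the 10 genes lay between -0.14 and 0.09.

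**Figure D1:**
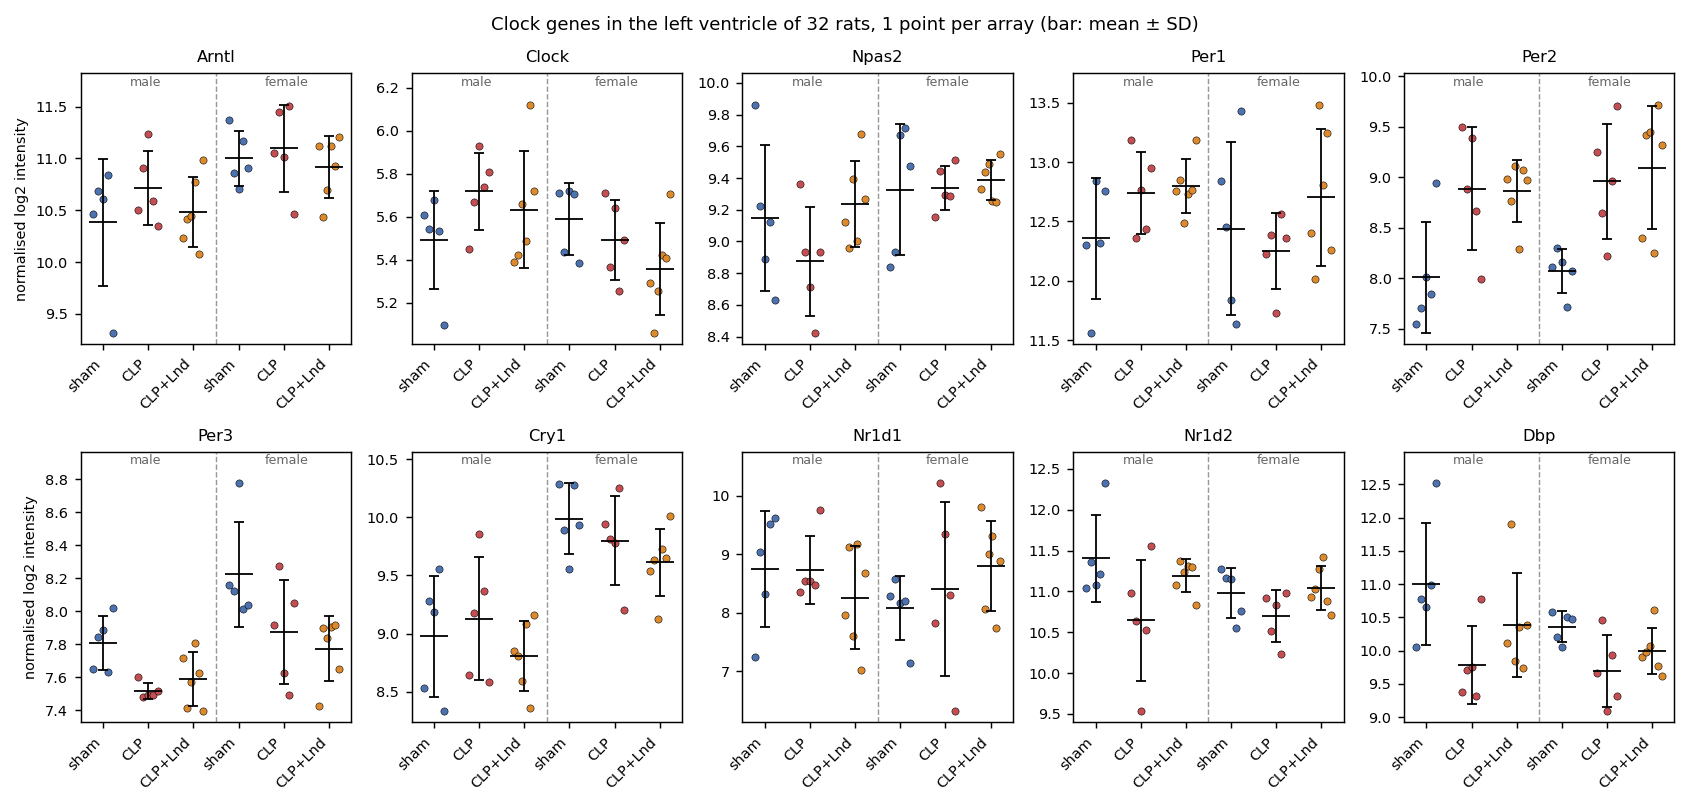
Normalised log2 intensity (vertical axis) of the brightest probe of each of the 10 clock genes, 1 point per array, in the sham, CLP and CLP plus landiolol (CLP+Lnd) groups of each sex (horizontal axis). Bars are the mean ± SD of 5 or 6 arrays. Per2 sits higher and Dbp lower in CLP than in sham in both sexes, with overlapping points, and Nr1d1 spreads widely within groups.

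Arntl encodes the activator that CLOCK and NPAS2 pair with, and its probe lies at chr1:171161969-171162028 on the plus strand. In the male sham group its levels were 10.46, 10.68, 10.61, 10.84 and 9.32, and in the male CLP group 10.50, 10.91, 11.24, 10.58 and 10.35. The male CLP plus landiolol group ran from 10.08 through a median of 10.43 to 10.98. All but 1 of the male arrays lay in a common range, and that array, sham replicate 5, was the lowest of all. Female levels were 11.37, 10.86, 10.70, 11.17 and 10.91 in sham, 11.06, 11.45, 11.02, 11.51 and 10.47 in CLP, and 10.43 to 11.21 with a median of 11.02 in CLP plus landiolol. The groups overlapped throughout. CLP vs sham differed by 0.33 ± 0.27 (SE, n = 5 and 5) in males, adjusted p = 0.463 by limma. This value rested largely on sham replicate 5, without which it was 0.07 (adjusted p = 0.89), and it was 0.20 without male CLP replicate 3.

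Clock encodes a partner of ARNTL and showed the smallest within-group SD of the 10 genes in females, 0.19. Its group means ran from 5.49 ± 0.23 (SD, n = 5, male sham) to 5.72 ± 0.18 (SD, n = 5, male CLP) in males, and from 5.36 ± 0.21 (SD, n = 6, female CLP plus landiolol) to 5.59 ± 0.17 (SD, n = 5, female sham) in females. In males the CLP vs sham difference was 0.23, and 0.13 without sham replicate 5. Another Clock probe, whose correlation with the first was r = 0.36 in males and 0.26 in females within groups, had male levels of 4.54 to 5.01 in sham and 5.11 to 5.78 in CLP. These did not overlap, which held for 12.3% of all probes in that comparison, and the difference of 0.68 ± 0.29 did not pass (limma adjusted p = 0.133). The sign of the Clock probes differed in females for CLP plus landiolol vs CLP, at -0.14 and 0.18. Npas2, the other partner, had group means of 8.87 to 9.24 in males and 9.33 to 9.39 in females, and the lowest limma adjusted p of its 6 comparisons was 0.445.

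Per1 encodes a repressor that also answers quickly to hormones and cAMP signalling. Its group means ran from 12.36 ± 0.51 (SD, n = 5, sham) to 12.80 ± 0.23 (SD, n = 6, CLP plus landiolol) in males and from 12.25 ± 0.32 (SD, n = 5, CLP) to 12.70 ± 0.58 (SD, n = 6, CLP plus landiolol) in females. The male difference of CLP plus landiolol vs sham was 0.44, with a 95% interval of -0.02 to 0.89 and a limma adjusted p of 0.227, and it was 0.24 without male sham replicate 2. Its second probe went the other way in males for CLP plus landiolol vs CLP, at -0.41 against 0.06, and that small value changed sign when single arrays were left out.

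Per2 encodes a repressor that acts in a complex with CRY1. Its probe lies at chr9:90645610-90645669 on the minus strand, and its upstream window is printed above. In males, Per2 read 7.54, 7.71, 8.01, 7.84 and 8.94 in sham and 9.50, 8.89, 9.39, 8.67 and 7.99 in CLP. The male CLP plus landiolol group ran from 8.29 through 8.97 to 9.11. The sham arrays were the low ones except for replicate 5, and the CLP arrays the high ones except for replicate 5. In females, sham arrays read 8.11, 8.30, 8.16, 7.72 and 8.07 and CLP arrays 9.25, 8.65, 8.22, 8.97 and 9.70. The female CLP plus landiolol group ran from 8.25 through 9.37 to 9.72. Each female CLP group reached into the sham range with its lowest array only.

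The Per2 difference of CLP vs sham was 0.88 ± 0.29 (SE) in males and 0.88 ± 0.30 in females, with 95% intervals of 0.26 to 1.5 and 0.24 to 1.52 and limma adjusted p of 0.0532 and 0.0814. For CLP plus landiolol vs sham it was 0.86 ± 0.28 in males (adjusted p = 0.0664) and 1.02 ± 0.29 in females (adjusted p = 0.0296). These comparisons share the sham arrays. CLP plus landiolol vs CLP differed by -0.02 in males, with an interval of -0.62 to 0.57, and by 0.14 in females, with an interval of -0.48 to 0.75. None of these values passed its FDR, and the differences between the CLP groups changed sign when single arrays were left out. Within slides, the male CLP vs sham difference was 1.63 on the first slide and 0.07 on the second, and the female one 0.69 and 1.05. Without male sham replicate 5 the male difference was 1.11, with a limma adjusted p of 0.0123. Over 32 alternatives it ran from 0.73 to 1.11 in males (limma adjusted p from 0.0123 to 0.129). The female range was 0.63 to 1.07 (adjusted p from 0.0421 to 0.342). In females, with slide row added to the model, CLP plus landiolol vs sham was 0.39 with an adjusted p of 0.855. Only the 5 female CLP arrays lay in both rows, so the row term rested on them. This fit cannot tell row from group.

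Per3 encodes a period protein that is less needed for rhythm than PER1 and PER2. Male levels were 7.65, 7.84, 7.88, 7.63 and 8.02 in sham and 7.60, 7.48, 7.49, 7.49 and 7.51 in CLP, and CLP plus landiolol ran from 7.39 through 7.60 to 7.80. Every male CLP array lay below every sham array, by a narrow margin, and Per3 was 1 of the 10 clock genes without overlap there, beside 12.3% of all probes. The difference was -0.29 ± 0.11 (SE), with a limma adjusted p of 0.0791. In females the levels were 8.16, 8.12, 8.78, 8.01 and 8.04 in sham, 7.92, 8.27, 7.63, 7.49 and 8.05 in CLP, and 7.43 through 7.87 to 7.92 in CLP plus landiolol. The female CLP plus landiolol arrays all lay below the sham arrays, which was so for 9.74% of all probes in either direction, with a difference of -0.45 ± 0.17 (limma adjusted p = 0.101). In CLP vs sham of females, where 8.32% of probes did not overlap, and in CLP plus landiolol vs sham of males, where 7.79% did not, 0 of the 10 genes were free of overlap. For CLP plus landiolol vs CLP the count was also 0 in males and 0 in females, beside 2.27% and 1.15% of probes.

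Cry1 encodes the cryptochrome that blocks the ARNTL and CLOCK pair. Its probe lies at chr7:20708985-20709044 on the plus strand. Male sham arrays read 8.53, 9.28, 9.19, 9.56 and 8.33, male CLP arrays 8.65, 9.18, 9.86, 9.37 and 8.58, while the group given landiolol ran from 8.36 through 8.83 to 9.16. Female sham arrays read 10.29, 9.89, 9.55, 10.28 and 9.93, CLP arrays 9.94, 9.82, 9.78, 10.25 and 9.20, while those with landiolol ran from 9.12 through 9.64 to 10.01. The groups overlapped in every comparison. Male CLP vs sham was 0.15, and -0.01 without sham replicate 5. The lowest limma adjusted p was 0.241, for a female difference of -0.37 between CLP plus landiolol and sham.

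Nr1d1, which encodes REV-ERBα, was the most variable of the 10 genes. In males its levels were 7.25, 9.04, 8.33, 9.52 and 9.63 in sham, 8.35, 8.54, 8.55, 8.48 and 9.76 in CLP, and 7.02 through 8.32 to 9.19 in CLP plus landiolol. In females they were 8.29, 8.58, 8.17, 8.21 and 7.14 in sham, 7.82, 10.22, 9.34, 8.31 and 6.32 in CLP, and 7.75 through 8.95 to 9.81 in CLP plus landiolol. The highest and lowest rats of a group lay further apart than any group means of that sex did. The within-group SD of Nr1d1 was 0.83 in males and 1.0 in females, larger than that of 97.4% and 98.2% of probes of like brightness (within 0.5 log2 units). Differences up to about 1 log2 unit were not detectable at this spread: CLP vs sham was -0.01 in males, with an interval of -1.05 to 1.02, and 0.33 in females, with an interval of -0.90 to 1.55. The male value was 0.21 without sham replicate 5 and -0.39 without sham replicate 1, and the female value was -0.13 without CLP replicate 2 and 0.85 without CLP replicate 5.

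Nr1d2 encodes REV-ERBβ, and the position of its probes is not given in the files. Male levels were 11.04, 11.36, 11.08, 11.21 and 12.33 in sham and 10.98, 10.63, 9.54, 10.53 and 11.55 in CLP, and 10.83 through 11.27 to 11.38 in CLP plus landiolol. CLP arrays were the lower ones except for replicate 5. The difference was -0.76 ± 0.31 (limma adjusted p = 0.111), -0.53 without male sham replicate 5 (adjusted p = 0.264) and -0.48 without male CLP replicate 3 (adjusted p = 0.26). Female levels were 11.28, 11.16, 11.15, 10.55 and 10.76 in sham and 10.92, 10.51, 10.83, 10.23 and 10.98 in CLP, a difference of -0.29 (adjusted p = 0.408), with -0.69 on the first slide and 0.06 on the second, and -0.17 without CLP replicate 4. CLP plus landiolol vs CLP was 0.54 ± 0.30 in males and 0.35 ± 0.18 in females, with limma adjusted p of 0.415 and 0.593. Without male CLP replicate 3 the male value was 0.27, and without female CLP replicate 4 the female value was 0.23. The second Nr1d2 probe had the same sign in all 6 comparisons, and limma called it in 0 of them.

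Dbp encodes the D-box binding factor that carries the clock to its output genes. It was measured with a probe of higher signal, called the brighter one here, at chr1:96178423-96178482, printed on 10 spots per array, and a second one at chr1:96178285-96178344, both on the plus strand. Over the 10 spots of an array the SD was 0.02 to 0.10, far under the spread between rats. With the brighter probe, male sham arrays read 10.05, 10.78, 10.66, 10.98 and 12.52 and male CLP arrays 9.38, 9.71, 9.75, 9.32 and 10.78. CLP plus landiolol arrays ran from 9.74 through 10.23 to 11.90. CLP arrays lay lowest, and each male group had 1 array well above the rest. Female arrays read 10.58, 10.20, 10.05, 10.50 and 10.48 in sham and 9.66, 10.46, 9.09, 9.93 and 9.32 in CLP, with CLP plus landiolol at 9.62 through 9.95 to 10.62. In both sexes the CLP group overlapped with sham through its highest array.

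By the brighter probe, the Dbp difference of CLP vs sham was -1.21 ± 0.45 (SE) in males and -0.67 ± 0.24 in females, with limma adjusted p of 0.0837 and 0.0926. Without male sham replicate 5 the male value was -0.83 (adjusted p = 0.199). CLP plus landiolol vs CLP was 0.60 in males, with an interval that reached below 0 (adjusted p = 0.538), and 0.30 in females (adjusted p = 0.733). The male value was 0.30 without CLP plus landiolol replicate 2, and the female one ran from 0.15 without CLP replicate 3 to 0.50 without CLP replicate 2. CLP plus landiolol vs sham was -0.61 in males, and -0.23 without sham replicate 5.

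The second Dbp probe passed in 1 comparison. In females it read 10.08, 9.80, 9.77, 9.91 and 9.86 in sham, 9.18, 8.94, 8.57, 9.0 and 8.55 in CLP, and 9.27 through 9.52 to 10.34 in CLP plus landiolol. Every female CLP array lay below every array of both other groups. Of all probes in females, 8.32% had no overlap in CLP vs sham and 1.15% in CLP plus landiolol vs CLP. By this probe Dbp fell by 1.03 ± 0.18 in CLP vs sham (log2 scale, 95% interval -1.42 to -0.64, limma adjusted p = 0.00246), with -0.93 on the first slide and -1.09 on the second. CLP plus landiolol vs CLP was 0.78 ± 0.18, again without overlap, and did not pass (limma adjusted p = 0.121). CLP plus landiolol vs sham was -0.25 (adjusted p = 0.396). In males this probe read 10.04, 10.52, 10.40, 10.75 and 12.47 in sham and 9.07, 9.53, 9.64, 9.22 and 10.85 in CLP, a difference of -1.17 with an adjusted p of 0.119.

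The Dbp probes went together closely in males (r = 0.99 within groups) and less so in females (r = 0.74). The array that parted them most was female CLP replicate 2, which read highest of its group by the brighter probe (10.46) and in the middle of it by the second (8.94). Without that array the female CLP vs sham difference was -0.86 by the brighter probe (adjusted p = 0.0201) and -1.06 by the second (adjusted p = 0.00467). Over 32 alternatives the brighter probe ran from -0.86 to -0.52 in females, with a limma adjusted p of 0.0136 to 0.253. With slide row added to the model, the second probe gave -0.99 with an adjusted p of 0.0184, which no longer passed the FDR of 1%. The row term rested on the 5 CLP arrays, the only female ones found in both rows.

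**Figure D2:**
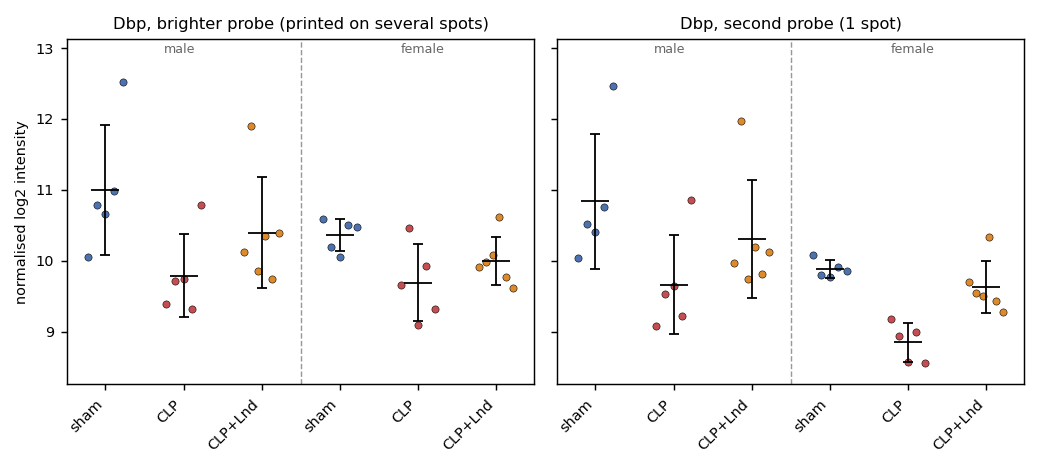
Normalised log2 intensity (vertical axis) of the brighter probe of Dbp (left) and of its second probe (right), 1 point per array, by sex and group (horizontal axis), with mean ± SD. Female CLP arrays span 9.09 to 10.46 by the brighter probe and 8.55 to 9.18 by the second, where they lie apart from sham and CLP plus landiolol.

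**Figure D3:**
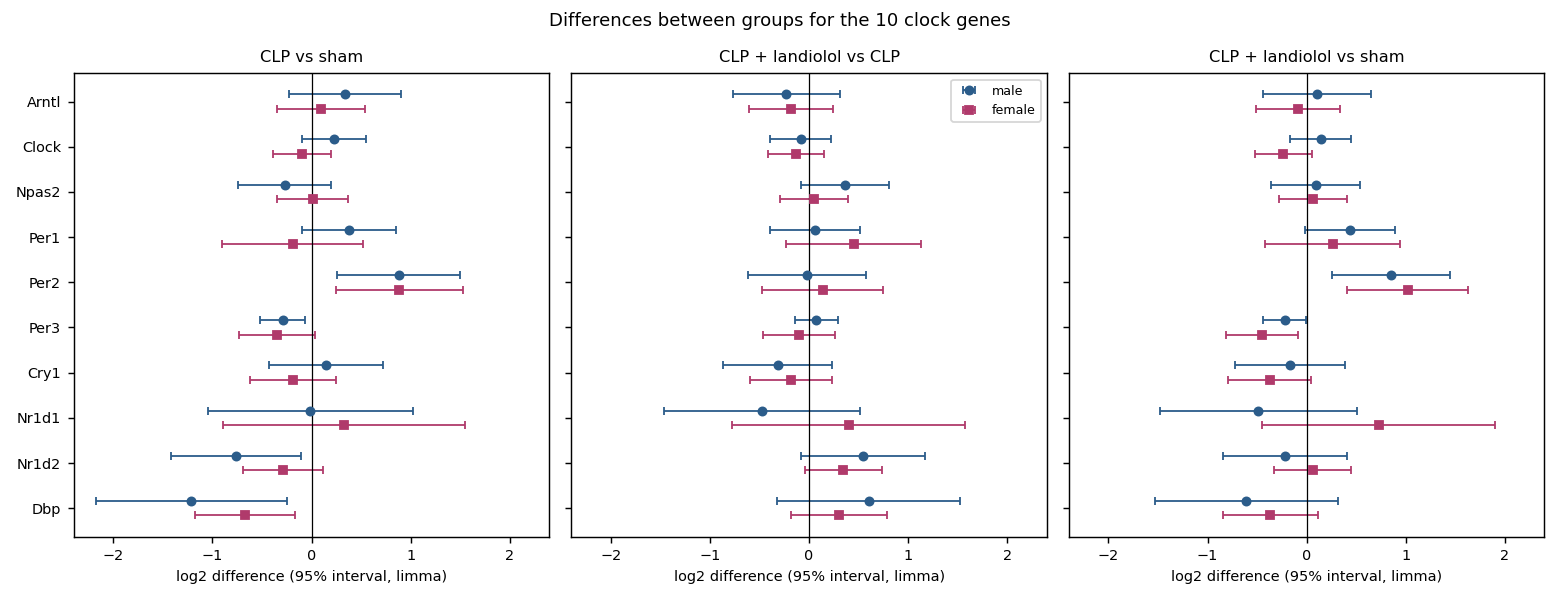
Log2 differences between groups (horizontal axis) of the brightest probe of each clock gene (vertical axis), with 95% intervals from limma, for CLP vs sham, CLP plus landiolol vs CLP and CLP plus landiolol vs sham, in males (circles) and females (squares). Intervals for Per2 lie above 0 in both sexes in the comparisons with sham, and those for Dbp lie below 0 in CLP vs sham, before any adjustment for the number of probes.

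Whether the sexes differed in these responses was tested as an interaction over the 32 arrays. None of the 10 genes passed for CLP vs sham, CLP plus landiolol vs CLP or CLP plus landiolol vs sham, and limma called 0% of all probes in each. An unadjusted p under 0.05 was reached by 0 of the 10 genes in each, beside 3.5%, 4.91% and 6.32% of probes. For Per2 the female minus male difference of CLP vs sham was 0.02, with a 95% interval of -0.87 to 0.90. For Dbp it was 0.51, with an interval of -0.56 to 1.59, and 0.11 by the second probe, with an interval of -0.98 to 1.19. The widest gap was that of Nr1d1 for CLP plus landiolol vs sham, 1.21, with an interval of -0.33 to 2.75 (adjusted p = 0.855). The second probe had the other sign in some of these tests, none of which passed. For CLP plus landiolol vs CLP the female minus male value was -0.05 for Clock and 0.71 by its second probe, -0.19 and 0.12 for Nr1d2, and -0.29 and 0.16 for Dbp. For CLP plus landiolol vs sham it was -0.17 and 0.22 for Per1. The intervals given above leave room for sex differences as large as the responses themselves.

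The spread between rats of the same group differed from gene to gene. Among probes of like brightness, 8 of the 10 genes in males and 7 of the 10 in females had a within-group SD above the median. Against all probes of any brightness it was 8 of the 10 in males and 4 of the 10 in females (Per1, Per2, Nr1d1 and Dbp). Besides Nr1d1, Dbp stood high in males (SD 0.78, above 97.7% of such probes) and Per1 in females (SD 0.57, above 90.3%). Per3 in males (SD 0.14, above 2.82%) and Clock in females (above 0.544%) were among the steadiest.

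Between rats of a group, the levels of Arntl were set against those of the other 9 genes after each group's mean had been removed. Cry1 went up and down with Arntl (r = 0.809, rho = 0.825 over 32 arrays). The permutation p, counting either direction, was 1e-05 for both, the smallest that the 100000 permutations can give, and 9e-05 after adjustment over the 9 relations. The correlation was 0.823 in males, 0.784 in females, and 0.742 to 0.909 within the 4 slides of 8 arrays each. Without the 2 arrays farthest from the median of Arntl, male sham replicate 5 and female CLP replicate 5, it was 0.767. Of 24663 probes, that of Cry1 among them, 0.0122% had a correlation with Arntl at least as high.

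Nr1d2 went against Arntl (r = -0.672, permutation p = 0.00056, adjusted 0.00252, and rho = -0.578, permutation p = 0.002, adjusted 0.009). It was -0.777 in males, -0.444 in females, -0.823 to -0.408 within the slides and -0.566 without the same 2 arrays. A correlation as low was found for 2.38% of all probes. For the other genes r was -0.402 for Per2, -0.379 for Per3, 0.311 for Clock, 0.265 for Nr1d1, -0.161 for Dbp, -0.0672 for Per1 and -0.0202 for Npas2, and the lowest adjusted permutation p among them was 0.114. Dbp had opposite signs in the sexes, -0.416 in males and 0.512 in females, a difference that was not tested.

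Male sham replicate 5, the array farthest from the median, had the lowest Arntl (9.32) and Cry1 (8.33) of its group and its highest Nr1d2 (12.33). The number of spots well above background moved with Arntl between rats of a group (r = 0.632, rho = 0.612, permutation p = 0.0017 and 0.00032, adjusted over 10 relations 0.0085 and 0.00215) and with Cry1 (r = 0.694, rho = 0.63, permutation p = 1e-05 and 0.00043, adjusted 1e-04 and 0.00215). It was 0.605 for Arntl and 0.65 for Cry1 without the 2 farthest arrays. With that number removed, r was 0.664 for Arntl and Cry1 and -0.634 for Arntl and Nr1d2. Correlations with Arntl beyond 0.5 in either direction were common on these arrays, at 28% of probes.

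**Figure D4:**
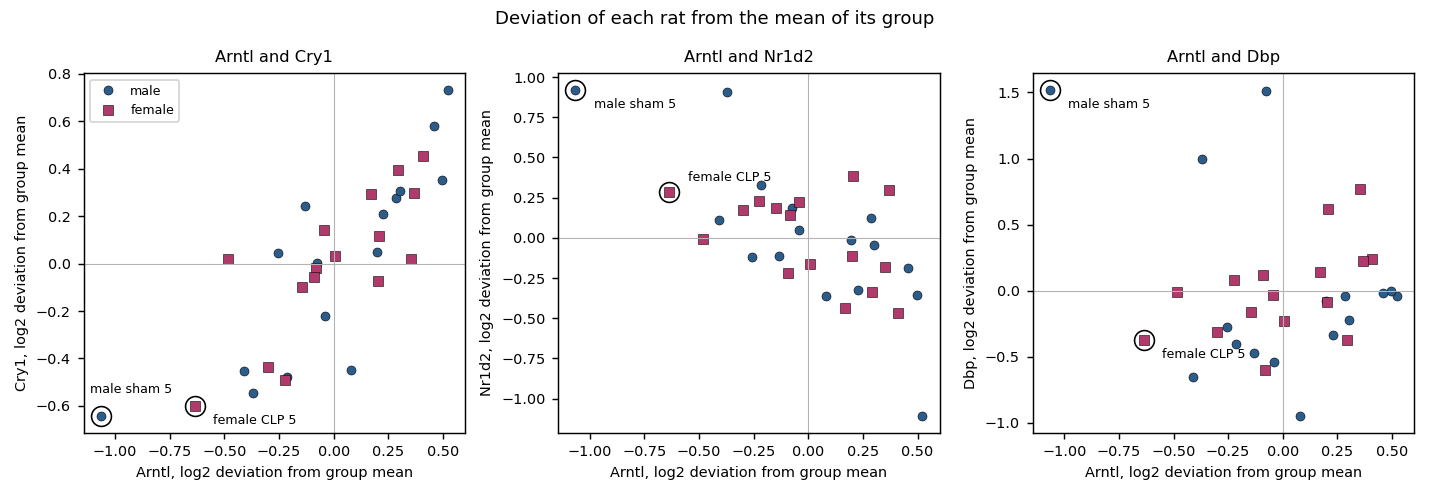
Deviation of each rat from the mean of its group, on the log2 scale, for Arntl (horizontal axis) against Cry1, Nr1d2 and Dbp (vertical axes), with males as circles and females as squares. Cry1 climbs with Arntl (r = 0.809), Nr1d2 declines with it (r = -0.672) and Dbp does neither (r = -0.161). Rings mark the 2 arrays farthest from the median.

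As a description of likeness over 13633 genes, the 5 genes that tracked Arntl most closely within groups were Pxylp1 (r = 0.85), Bbs10 (0.82), Cry1 (0.81), Fbxo8 (0.79) and Fam8a1 (0.79). The 5 that ran most against it were Myo10 (-0.81), Syncrip (-0.81), Eid2b (-0.78), Upf1 (-0.78) and Rpl36al (-0.77). For Dbp, the closest were Ppara (0.62), Nr1d1 (0.58), Sox12 (0.58), Tef (0.58) and C1d (0.58), of which Tef encodes another factor of the D-box family. The most opposed were Alx4 (-0.65), Tmem234 (-0.61), Eda2r (-0.61), Snrnp35 (-0.60) and Cenpn (-0.59). All points share the 32 arrays.

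A wider list of 23 clock genes (other loop members, D-box factors, kinases, and output genes of the heart) had probes for all 23, and 21 were tested in each sex. Arntl2 and Rorb were too dim. In male CLP vs sham, 1 of the 21 passed upward and 2 downward by the brightest probe, beside the 7.81% of all probes given above, and in the other 5 comparisons limma called 0. An unadjusted p under 0.05 was reached by 7, 6 and 3 of the 21 in males and by 6, 6 and 8 in females, in the order CLP vs sham, CLP plus landiolol vs CLP and CLP plus landiolol vs sham. The shares of all probes were 28.8%, 14.8% and 24.2% in males and 23.1%, 9.34% and 26.7% in females. The median difference of the list in CLP vs sham was -0.21 in males and -0.19 in females.

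Btrc encodes the ubiquitin ligase subunit that marks period proteins for breakdown. It rose in male CLP hearts, from 10.43 ± 0.08 to 10.87 ± 0.14 (SD, n = 5 each), a difference of 0.44 ± 0.10 (limma adjusted p = 0.00586), and its second probe did not pass (0.30, adjusted p = 0.246). Usp2, an ubiquitin protease with a strong daily rhythm, fell by 0.90 ± 0.19 (adjusted p = 0.00449) from 12.35 ± 0.20 to 11.45 ± 0.51. The other 2 Usp2 probes gave -1.13 and -1.0 and did not pass (adjusted p = 0.083 and 0.0694). Kcnip2 encodes the channel subunit KChIP2, which shapes the transient outward potassium current and follows the heart's clock. It fell by 0.83 ± 0.19 (adjusted p = 0.00755) from 16.63 ± 0.38 to 15.81 ± 0.16, and its second probe passed too (-0.87, adjusted p = 0.00379). These 3 calls did not hold without male sham replicate 5, where the limma adjusted p was 0.0144, 0.014 and 0.0124. The differences there were 0.44, -0.83 and -0.87. Other arrays mattered too: with each of the 16 male arrays left out in turn, the call was lost 7 times for Btrc, 5 for Usp2 and 12 for Kcnip2.

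In females, CLP vs sham was 0.63 for Btrc, -0.84 for Usp2 and -0.77 for Kcnip2, with limma adjusted p of 0.0187, 0.0322 and 0.0676, none of which passed. The differences between the sexes in these 3 responses were 0.21, 0.05 and 0.04 (adjusted p = 1 each). A second probe of Csnk1e, the kinase that phosphorylates period proteins, rose in female CLP plus landiolol vs sham by 0.67 ± 0.12 (adjusted p = 0.00153), while its brightest probe gave 0.17 (adjusted p = 0.479). With slide row added to the model, a term that rested on the 5 female CLP arrays, that call was lost. Ciart is listed with a brightest probe that only the older of the annotation versions names so, and its values are uncertain.

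**Figure D5:**
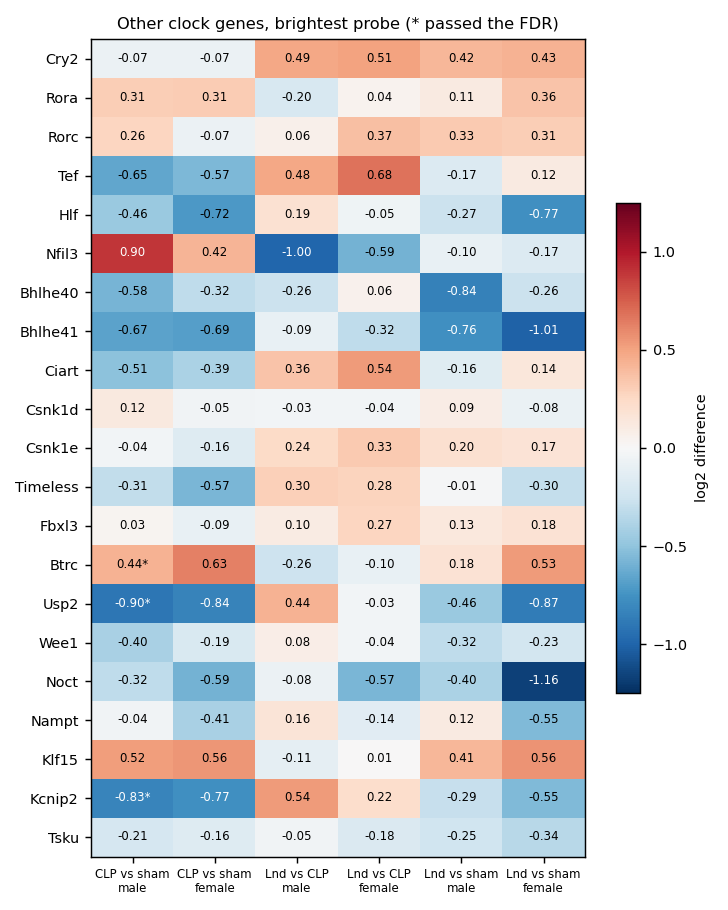
Log2 differences (colour and printed value) of the 21 tested genes of the wider clock list (vertical axis) in the 6 comparisons (horizontal axis), by the brightest probe. Asterisks mark the 3 values that passed the FDR, all in male CLP vs sham: Btrc at 0.44, Usp2 at -0.90 and Kcnip2 at -0.83.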

How the data were processed

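Left ventricular RNA of 32 rats was hybridised to Agilent 8x60K arrays in 1 colour, 1 rat per array. The authors extracted spot intensity with Agilent Feature Extraction 10.5, which subtracts background and detrends within an array, and the deposited intensity values are not normalised between arrays. The authors also deposited log2 values that were quantile-normalised and filtered, which served as an alternative.

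From the processed intensity, outlier spots and controls were left out, log2 was taken, spots of a probe were averaged and arrays were quantile-normalised within each sex. A probe was kept where 80% or more of the arrays in any group of that sex read it well above background (25866 in males, 25395 in females), and 213 values were missing. The comparisons used limma 3.58.1 in R 4.3.3 with Benjamini-Hochberg adjustment over all kept probes, at an FDR of 1% against sham and 5% for landiolol vs CLP and for differences between the sexes. The latter were fitted on 32 arrays normalised together (24769 probes). All 16 arrays of a sex entered each fit, and the steps were tested on simulated data. The methods' test, SAM, was an alternative with 100 permutations, since limma gives a standard error. Relations between genes used 100000 permutations within groups.

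For each gene the brightest probe, by its average across the 32 arrays, was used, with other probes named where sign or call differed. Of the wider clock list, genes called at least once were named, and of the likeness ranking the 5 highest and 5 lowest. The members, lists and tests were chosen with earlier results of these data known. Groups came from the sample labels. Replicates are separate rats. The number of arrays limits the precision.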

Additional observations from a re-analysis of the deposited data

Results flagged for a closer look

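In 8 of the 60 combinations of gene and group (brightest probe), 1 array lay far from the others of its group by Dixon's test. About 1 in 20 such groups would be named by chance. The 8 values came from 6 arrays.

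By this test, male sham replicate 5 stood apart in 3 genes. It was also the highest of its group for Per2, Per3, Nr1d1 and Dbp and the lowest for Npas2 and Cry1. Its Arntl level was 9.32, with the other 4 arrays between 10.46 and 10.84. Its Clock level was 5.10 against 5.53 to 5.68, and its Nr1d2 level was 12.33 against 11.04 to 11.36. Without it, male CLP vs sham was 0.07 for Arntl, 0.13 for Clock and -0.53 for Nr1d2, against 0.33, 0.23 and -0.76 with it. The sample titles end in a code that can be read as a day, though the labels do not say what it marks. Read so, male sham replicate 5 and male CLP replicate 5 have the earliest codes of the male arrays. A linear term for this code was among the alternative settings, and its part in the levels was not tested beyond that.

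Nr1d1 read 9.76 in male CLP replicate 5, with the others at 8.35 to 8.55, and 7.14 in female sham replicate 5, with the others at 8.17 to 8.58. Per3 read 7.60 in male CLP replicate 1, with the others at 7.48 to 7.51, and 8.78 in female sham replicate 3, with the others at 8.01 to 8.16. Dbp read 11.90 in male CLP plus landiolol replicate 2, with the others at 9.74 to 10.39.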

How the results depend on the processing

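The count of clock genes called was 0 in each comparison, and it was again 0 in 114 of 117 alternative settings and in all 192 settings that left out 1 array (range 0 to 0 for every comparison). In females, CLP plus landiolol vs sham, the count was 1 (Per2) with array weights, 1 (Per2) with SAM and 1 (Per2) with the FDR levels exchanged, beside 9.19%, 12% and 12.8% of all probes. The cause was not tested for the first and second of these, and the last only relaxes the threshold to 5%. The Per2 difference there ranged from 0.39 to 1.19 (limma adjusted p from 0.00517 to 0.855). No called value changed direction. The female Dbp call of the second probe held in 30 of 31 alternatives and the Csnk1e call in 31 of 32. Both were lost when slide row was added to the model, where the row term rested on the 5 female CLP arrays. In males, Btrc was called in 21, Usp2 in 26 and Kcnip2 in 15 of 32 alternatives, with differences of 0.39 to 0.48, -1.08 to -0.75 and -0.97 to -0.73. With only the 2 groups compared, all 3 calls were lost (adjusted p = 0.022, 0.0252 and 0.0134). The relation of Arntl with Cry1 (r from 0.784 to 0.854) and with Nr1d2 (r from -0.728 to -0.549) passed in all 38 alternatives, of which those leaving out 1 array were chosen after seeing the data. That with Per2 passed in 2 of them, with Per3 in 3 and with Nr1d1 in 1 (without male sham replicate 5, r = 0.494). No paired analysis was possible because the replicate numbers follow accession order and pair no rats. Groups of 5 or 6 rats left intervals that reached about 1 log2 unit to either side of the difference for the most variable genes.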
